A study of Homo sapiens with 24 samples.

Results

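The 10 genes described here code for proteins of the mitotic spindle, or for proteins made at the same stage of the cell cycle, that are not motor proteins: FAM83D, HMMR, KNSTRN, ASPM, NUSAP1, GTSE1, CKAP2, DEPDC1, DEPDC1B and PRR11. They were picked by symbol out of 58721 gene identifiers counted in each of 24 RNA-seq libraries, as genes that differ in how their RNA level depends on MYBL2 and on FOXM1. Their values in the 4 treatments, in the control groups these were set against, and in the comparison of both single knockdowns had therefore been seen when they were chosen. Those values are given as a description with no test, and the counts of members that pass a threshold support nothing by themselves.

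The libraries came from A549, an established cell line of human lung adenocarcinoma origin. In a first experiment the cells received 25 nM of siRNA against MYBL2 (siMYBL2, n = 4), siRNA against FOXM1 (siFOXM1, n = 4) or scrambled siRNA (siControl, n = 4), and both knockdowns share these 4 siControl libraries. In a second set the cells received both siRNAs together (siBoth, n = 3) or scrambled siRNA (siControl_Both, n = 3). The study's methods give 25 nM for the knockdowns, and do not say whether in siBoth this was each siRNA or the total. In the third set the cells were treated for 24 h with 20 µM FDI-6 (FDI6, n = 3), beside control cells (control_FDI6, n = 3). FDI-6 is a small molecule that keeps FOXM1 off DNA. The study calls these controls DMSO in some places and untreated cells in others, and the labels do not describe them. The study's methods call the replicates biological, all groups are 1 line in culture, and the siRNAs were transfected transiently, so each value is an average over the cells of a culture.

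During mitosis the spindle is built from microtubules by motors and by non-motor proteins that nucleate, bundle, anchor or recruit. Genes for such proteins are switched on late in the cell cycle, and many of their promoters carry a cell cycle genes homology region (CHR), the element through which the MuvB complex is brought to DNA. MuvB works with MYBL2 (B-MYB), and FOXM1, a forkhead factor, joins the same promoters later in G2. In bulk RNA, fewer cells at that stage and less RNA per cell cannot be told apart.

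The CHR matches near the start sites are shown first, because members with very different responses, such as DEPDC1B and HMMR, share them. RefSeq promoter windows of 300 bases (GRCh38.p14, 250 before to 50 after the annotated start) were at hand for 9 of the 10 genes, all but FAM83D. A search on both strands for TTTGAA or TTCGAA found the CHR letters in 7 of the 9 windows, against 16.4% of all 35116 promoters of the same length. The lines below give 30 bases of the gene's own strand around each match, 5′ to 3′, with the match in capitals. TTCAAA is TTTGAA read from the other strand. For HMMR, which has a pair of adjoining matches, the one nearer to the start is in capitals.

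DEPDC1B: gcgggcttgggaTTCAAActgctgctcctc
DEPDC1: ccctctatgctaTTCAAAtcggcggcgggg
PRR11: caaggatttaatTTTGAAtttttctttatg
GTSE1: ctcggagcccttTTCAAAccgaccaatcgg
NUSAP1: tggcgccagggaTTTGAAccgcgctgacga
ASPM: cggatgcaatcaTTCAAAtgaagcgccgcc
HMMR: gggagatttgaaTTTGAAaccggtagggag

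The DEPDC1B stretch lies at chr5:60700147-60700176 on the minus strand, and its match begins 3 bases into the transcript. DEPDC1 lies at chr1:68497092-68497121 on the minus strand, with the match starting at -27. PRR11 lies at chr17:59155723-59155752 on the plus strand, with the match starting at -11. GTSE1 lies at chr22:46296832-46296861 on the plus strand, with the match starting at -26. NUSAP1 lies at chr15:41332882-41332911 on the plus strand, with the match starting at base 14 of the transcript. The RefSeq start used here lies well inside the gene span given below, which begins at chr15:41320794. ASPM lies at chr1:197146765-197146794 on the minus strand, with the match starting at -113, the farthest upstream of the 7 genes. HMMR lies at chr5:163460598-163460627 on the plus strand, with the match starting at -22. Its RefSeq start also lies inside the gene span, which begins at chr5:163460203. KNSTRN and CKAP2 had no such letters in their windows, and FAM83D had no window. These are the members described below as lower after either siRNA by like amounts, but FAM83D could not be searched. HMMR, which has the letters, also changed by like, though smaller, amounts. Its log2 fold changes were -0.18 in siMYBL2 and -0.13 in siFOXM1. Whether the motif bears on the responses was not tested.

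The same 7 genes held the CCAAT box (CCAAT), the element bound by NF-Y, which was found in 34.6% of all promoters. The forkhead core TGTTTA occurred in 1 of the 9 windows, that of ASPM, and in 12.3% of all promoters. The MYB core AACNG occurred in 7 of 9 windows and in 77.2% of all promoters. AACNG and the CHR letters can overlap, as they do in GTSE1, NUSAP1, DEPDC1B and HMMR. KNSTRN held none of the 4 motifs. A match is a description of letters in a window and does not show a bound site.

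**Figure D1:**
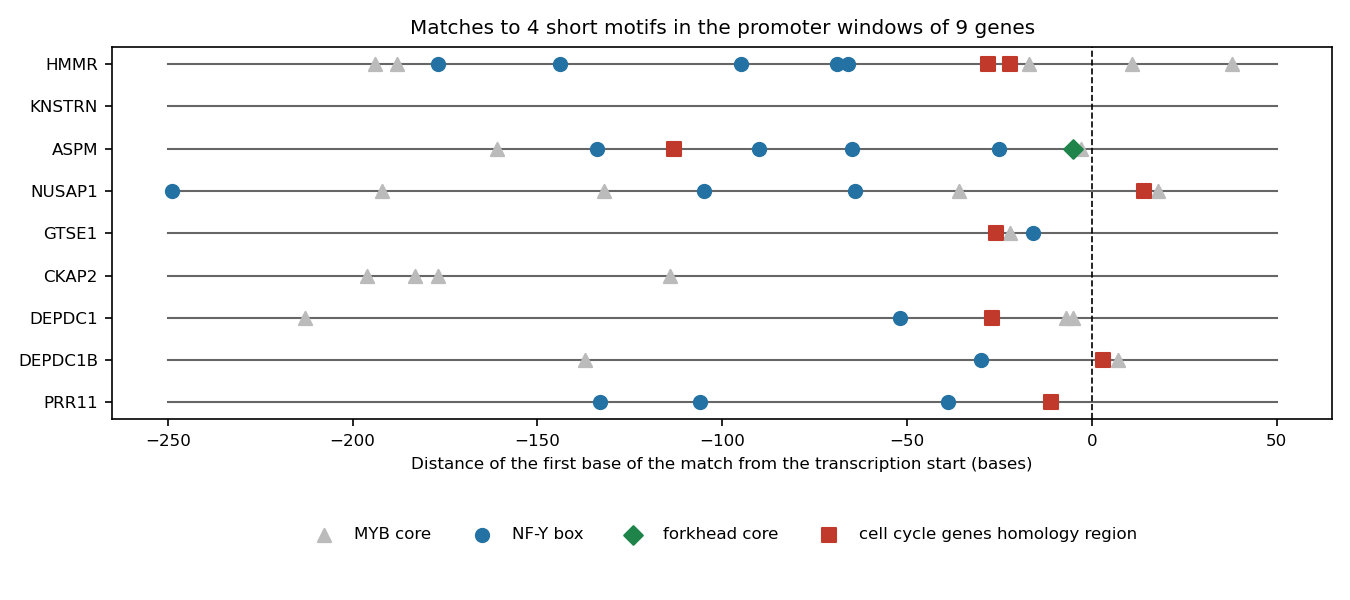
Matches to 4 short motifs in the promoter windows of 9 genes, each drawn as a line from 250 bases before to 50 bases after the annotated start (dashed). The horizontal axis is the distance in bases, squares are CHR matches, circles are boxes bound by NF-Y, diamonds are forkhead cores and triangles are MYB cores. Of the 7 genes with a CHR match, 6 have one within 30 bases of the start, and ASPM has its match at -113.

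Between 16487394 and 30140550 read pairs per library were counted on genes, with the FDI6 set the shallowest. Every member was detected in every library and passed the filter on low counts in all 7 comparisons, and NUSAP1 was the lowest with 23 to 164 counts per library. The share of pairs not aligned was 7.68% to 10.93% in the double-knockdown set and at most 3.03% elsewhere, so that set stands apart from the others. The epithelial keratins KRT7, KRT8 and KRT18 were high in every library, at no less than 629, 1599 and 1021 CPM (counts divided by the TMM-adjusted library size). The other epithelial genes on the list were lower: KRT19 was at 37.7 to 349 CPM, CDH1 (E-cadherin) at 9.52 to 90.4 CPM and EPCAM at 1.67 to 37.6 CPM. Markers of other cell types were low: the 4 leukocyte genes summed to 0 to 0.483 CPM, the 3 endothelial genes to 0 to 4.58 CPM, and the 3 fibroblast genes to 5.28 to 59.3 CPM, nearly all of it COL1A1. The targets were depleted: MYBL2 was at 4.17% of siControl in siMYBL2 and at 4.90% of siControl_Both in siBoth, and FOXM1 was at 9.58% of siControl in siFOXM1 and at 9.66% in siBoth. FOXM1 was also lower in siMYBL2, with a log2 fold change of -0.73 ± 0.14 (SE), whereas MYBL2 in siFOXM1 had -0.06 ± 0.11. In siMYBL2 every library therefore had less FOXM1 RNA too, and its part in the members' values was not tested.

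With scrambled siRNA the members spanned a wide range of levels. Per kilobase of exon in siControl, FAM83D was highest at 35.6 ± 5.26 CPM per kb (SD, n = 4), followed by HMMR at 21.0 ± 0.900 and CKAP2 at 19.7 ± 1.92. ASPM followed at 15.9 ± 1.92, GTSE1 at 13.7 ± 1.18, PRR11 at 13.1 ± 0.535, DEPDC1 at 11.6 ± 0.826, KNSTRN at 10.0 ± 1.06 and DEPDC1B at 8.12 ± 0.544. From HMMR down to KNSTRN each gene's range overlapped that of the next, so that the order of neighbours is not resolved. Genes further apart in that order could be separate, as HMMR was from ASPM. FAM83D stood above them all and DEPDC1B below. NUSAP1 cannot be placed: 86.8% of its exon bases lie under other genes, mostly a readthrough gene on the same strand, and HTSeq drops pairs that fit more than 1 gene. Its value was 1.19 CPM per kb over all its exons and 8.98 over the bases that no other gene covers.

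**Figure D2:**
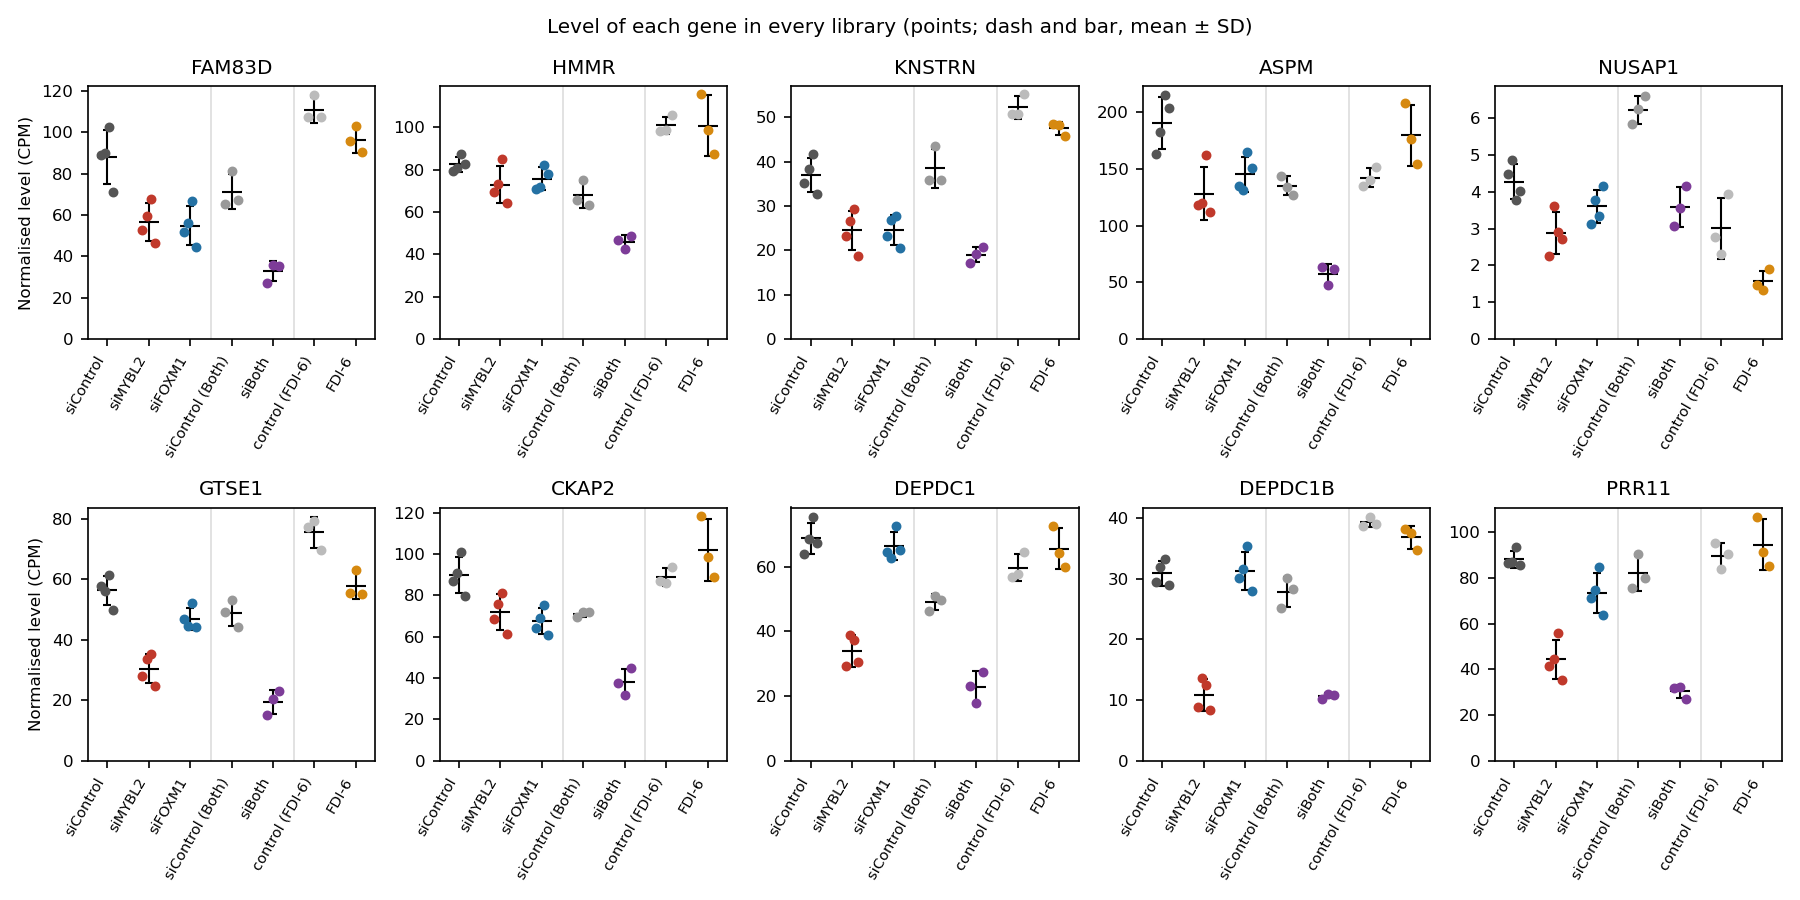
Level of each of the 10 genes in every library, in CPM on a linear axis that starts at 0. Points are libraries, dashes and bars are the mean ± SD, and grey lines part the 3 sets with their own controls. DEPDC1B lies at 8.36 to 13.6 CPM in siMYBL2 and at 28.0 to 35.4 CPM in siFOXM1, while FAM83D lies in nearly the same range in both.

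The members were spread along a range of dependence on the 2 factors. At one end DEPDC1B, DEPDC1, PRR11 and GTSE1 were much lower in siMYBL2 and far less changed in siFOXM1. At the other end FAM83D, KNSTRN and CKAP2 were lower after either siRNA by like amounts, and HMMR moved little after either. In siMYBL2, 6 of the 10 passed the call rule (a change of more than 1.5-fold with an edgeR adjusted p below 0.05), all of them lower, where 3.52% of all 16065 genes tested were called lower and 4.38% higher. In siFOXM1, 1 member was called lower, where 0.591% of 15892 genes were called lower and 0.0755% higher. In siBoth, 9 were called lower, where 3.64% of 15812 genes were called lower and 2.8% higher. In siMYBL2, FAM83D and KNSTRN were not called without siMYBL2 replicate 1 or 4 or siControl replicate 3, which left 4 members called, and KNSTRN was not called without siControl replicate 2 either. ASPM was called without siMYBL2 replicate 3 or siControl replicate 1 or 2. Since these contrasts were known when the members were picked, nothing is read from these counts.

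The DEP-domain genes gave the clearest split (gene positions here and in the next paragraphs are on hg38, from GENCODE V44). DEPDC1B (ENSG00000035499.12, chr5:60596912-60700190, minus strand) codes for a DEP-domain protein that links cell adhesion to mitotic entry. Its levels were 29.5, 31.9, 33.3 and 28.9 CPM in the siControl libraries, 8.80, 13.6, 12.5 and 8.36 CPM in siMYBL2 and 30.1, 31.6, 35.4 and 28.0 CPM in siFOXM1. Every siMYBL2 library was thus below every other library of that experiment, and the siFOXM1 and siControl ranges lay over each other. The log2 fold change was -1.51 ± 0.16 (SE) in siMYBL2, or 35.0% of the control level, and 0.01 ± 0.09 in siFOXM1. In siBoth the levels were 10.2, 11.0 and 10.9 CPM against 25.2, 30.1 and 28.3 CPM in siControl_Both. That is a log2 fold change of -1.38 ± 0.11, close to the value for siMYBL2 alone.

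DEPDC1 (ENSG00000024526.16, chr1:68474152-68497221, minus strand), its paralogue, behaved in the same manner from a higher level. It was at 63.8, 68.6, 75.4 and 67.2 CPM in siControl, 29.1, 38.9, 37.4 and 30.5 CPM in siMYBL2 and 64.7, 62.8, 72.5 and 65.2 CPM in siFOXM1. The siMYBL2 libraries were all below the rest, and the other 2 groups overlapped. Its log2 fold change was -1.01 ± 0.11 in siMYBL2, -0.06 ± 0.07 in siFOXM1 and -1.10 ± 0.15 in siBoth. An antisense lncRNA gene with few counts covers 5.70% of its exon bases.

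PRR11 (ENSG00000068489.12, chr17:59155732-59206709, plus strand), a proline-rich protein made late in the cell cycle, was at 86.8, 86.9, 93.5 and 85.5 CPM in siControl. It was at 41.4, 44.5, 55.9 and 35.5 CPM in siMYBL2 and at 71.1, 74.7, 84.9 and 63.6 CPM in siFOXM1. All 3 groups were separate, with siFOXM1 in between. The log2 fold changes were -0.99 ± 0.13 in siMYBL2, -0.27 ± 0.09 in siFOXM1 and -1.44 ± 0.11 in siBoth, the last being the lowest value of any member there. PRR11-AS1, an lncRNA gene on the opposite strand, covers 4.80% of its exon bases, and the strand setting of the counting is not given in the sources used here, so pairs from that stretch cannot be assigned.

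GTSE1 (ENSG00000075218.18, chr22:46296870-46330810, plus strand) codes for a microtubule-associated protein of G2 and mitosis that also restrains p53. Levels were 57.8, 56.2, 61.5 and 49.9 CPM in siControl, 28.2, 33.5, 35.4 and 24.8 CPM in siMYBL2 and 46.9, 44.5, 52.0 and 44.3 CPM in siFOXM1. The siMYBL2 libraries were below all others, and siFOXM1 overlapped siControl. GTSE1 had log2 fold changes of -0.89 ± 0.12 in siMYBL2, -0.27 ± 0.08 in siFOXM1 and -1.32 ± 0.15 in siBoth.

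Among the proteins that bring others to the spindle, FAM83D and KNSTRN were lower after either siRNA. FAM83D (ENSG00000101447.14, chr20:38926312-38953106, plus strand) brings casein kinase 1 alpha to the spindle. It was at 89.2, 89.98, 102 and 70.9 CPM in siControl, 52.6, 59.5, 67.8 and 46.4 CPM in siMYBL2 and 51.7, 55.9, 66.9 and 44.6 CPM in siFOXM1. Both knockdown groups lay below siControl and over each other, and in each group replicate 3 was highest and replicate 4 lowest. The log2 fold changes were -0.64 ± 0.14 and -0.69 ± 0.14. In siBoth the levels were 27.3, 36.0 and 35.2 CPM against 65.5, 81.1 and 67.2 CPM, a log2 fold change of -1.12 ± 0.13.

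KNSTRN (ENSG00000128944.13, chr15:40382721-40394288, plus strand), a protein of the kinetochore and spindle that works with astrin (SPAG5), matched FAM83D closely. Its levels were 35.1, 38.3, 41.7 and 32.7 CPM in siControl, 23.3, 26.6, 29.2 and 18.8 CPM in siMYBL2 and 23.2, 26.9, 27.7 and 20.4 CPM in siFOXM1. Every knockdown library of either kind was below every control library. KNSTRN had log2 fold changes of -0.59 ± 0.14, -0.60 ± 0.12 and, in siBoth, -1.02 ± 0.12. It was the only member called in siFOXM1 in the main fit, and FAM83D, with the larger change, was not called there. DESeq2 called both, as did edgeR without a filter on low counts. With the replicate number as a block, 2 members were called, KNSTRN and FAM83D, where 401 of all genes were called in place of 106. Leaving out any 1 of 6 libraries (siFOXM1 replicate 1, 2 or 4, or siControl replicate 1, 2 or 3) left no member called. Without siFOXM1 replicate 3 the member called was FAM83D alone, and without siControl replicate 4 both were called.

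HMMR (ENSG00000072571.19, chr5:163460203-163491941, plus strand), the hyaluronan-mediated motility receptor and a partner of FAM83D at the spindle, moved least in siMYBL2 and in siBoth, whereas in siFOXM1 DEPDC1B and DEPDC1 moved less. Its levels were 79.5, 80.6, 87.5 and 82.8 CPM in siControl, 69.2, 73.1, 85.0 and 64.4 CPM in siMYBL2 and 71.1, 71.6, 82.3 and 77.8 CPM in siFOXM1. The 3 groups overlapped, although each treated library was below the control library of the same number. The log2 fold changes were -0.18 ± 0.09 and -0.13 ± 0.06. In siBoth it was at 46.5, 42.4 and 48.7 CPM against 65.8, 75.0 and 63.4 CPM with no overlap, a log2 fold change of -0.57 ± 0.10, just under the 1.5-fold line. It was called in siBoth without siBoth replicate 1 or 3 or siControl_Both replicate 1 or 3 (-0.63 to -0.59).

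Of the microtubule proteins, ASPM and NUSAP1 lay between the extremes, and CKAP2 was lower after either siRNA by like amounts. ASPM (ENSG00000066279.17, chr1:197084121-197146694, minus strand) works at spindle poles, and its loss causes microcephaly. It was at 163, 182, 215 and 203 CPM in siControl, 118, 120, 162 and 112 CPM in siMYBL2 and 135, 131, 164 and 151 CPM in siFOXM1. The highest siMYBL2 library, replicate 3, came just under the lowest siControl library. ASPM had log2 fold changes of -0.57 ± 0.13, -0.40 ± 0.10 and, in siBoth, -1.23 ± 0.12, and its siMYBL2 value lay just short of 1.5-fold.

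CKAP2 (ENSG00000136108.14, chr13:52455429-52476628, plus strand), which promotes microtubule nucleation, was at 87.0, 90.9, 101 and 79.7 CPM in siControl. It was at 68.6, 75.9, 81.1 and 61.1 CPM in siMYBL2 and at 64.0, 69.2, 75.3 and 60.8 CPM in siFOXM1. Only the siFOXM1 libraries were all below siControl. CKAP2 had log2 fold changes of -0.32 ± 0.11, -0.42 ± 0.09 and, in siBoth, -0.90 ± 0.12.

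NUSAP1 (ENSG00000137804.12, chr15:41320794-41381050, plus strand), which bundles microtubules around chromosomes, was counted only on the part of its exons free of other genes. Those few counts gave 4.48, 4.85, 3.76 and 4.01 CPM in siControl, 2.25, 3.63, 2.90 and 2.71 CPM in siMYBL2 and 3.13, 3.79, 3.34 and 4.15 CPM in siFOXM1. The siMYBL2 libraries were below siControl and the siFOXM1 libraries overlapped it. The log2 fold changes were -0.57 ± 0.17, -0.25 ± 0.14 and, in siBoth, -0.79 ± 0.17. NUSAP1 was called in siBoth but not without siBoth replicate 1 or 2 or siControl_Both replicate 2 or 3, and was called in siMYBL2 without siMYBL2 replicate 2 (-0.71). The genes over its exons are ENSG00000285920, with no counts, OIP5-AS1 on the same strand and OIP5 on the opposite strand.

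**Figure D3:**
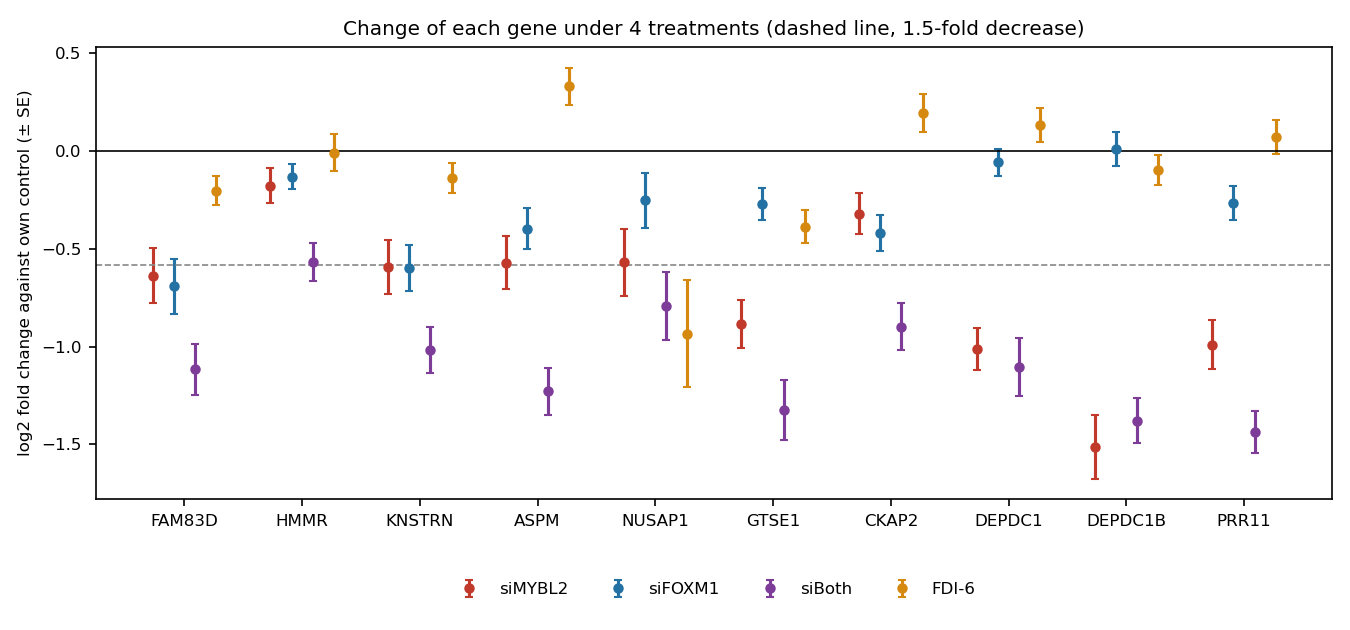
Log2 fold change (± SE) of each gene against its own controls in siMYBL2, siFOXM1, siBoth and FDI6, with the 1.5-fold decrease dashed. The siBoth values lie between -1.44 and -0.57, while the FDI6 values of 9 genes lie between -0.39 and 0.33 and that of NUSAP1 at -0.93.

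Set directly against each other, siMYBL2 and siFOXM1 differed most at the same 4 genes. The log2 difference, siMYBL2 minus siFOXM1, was -1.53 ± 0.17 (SE) for DEPDC1B, -0.96 ± 0.11 for DEPDC1, -0.73 ± 0.14 for PRR11 and -0.62 ± 0.12 for GTSE1, and in each of them every siMYBL2 library was below every siFOXM1 library. Those 4 passed the call rule (GTSE1 not without siMYBL2 replicate 1 or 4 or siFOXM1 replicate 3), where 4.34% of 16172 genes were called lower and 5.86% higher. For the other 6 the groups overlapped. The differences were 0.05 ± 0.15 for FAM83D, 0.00 ± 0.15 for KNSTRN, -0.05 ± 0.09 for HMMR and 0.09 ± 0.10 for CKAP2. The 95% interval was -0.28 to 0.38 for FAM83D and -0.34 to 0.34 for KNSTRN. With the replicate number as a block, which the pairing of these libraries allows, it narrowed to -0.05 to 0.15 for FAM83D and to -0.14 to 0.12 for KNSTRN. ASPM at -0.18 ± 0.13 and NUSAP1 at -0.32 ± 0.17 lay between. With the block the intervals were -0.311 to -0.0664 for ASPM and -0.635 to -0.0255 for NUSAP1. They were -0.174 to 0.0628 for HMMR and -0.0055 to 0.186 for CKAP2. This contrast was known when the members were picked, so the intervals describe precision and test nothing.

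**Figure D4:**
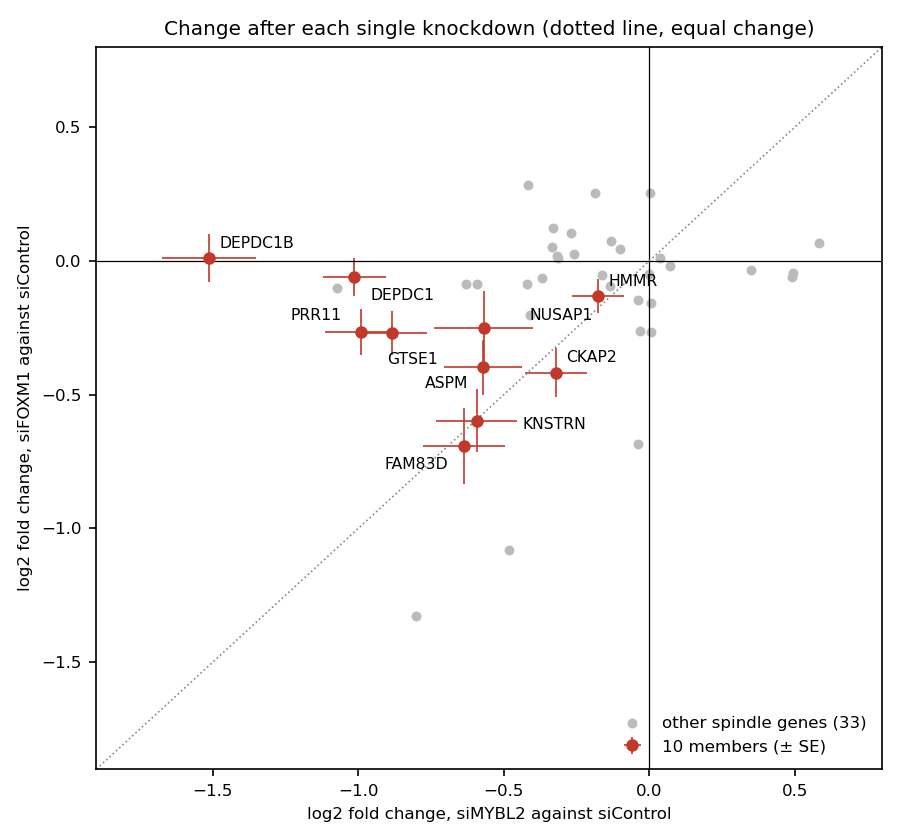
Log2 fold change in siFOXM1 against that in siMYBL2, with red points for the 10 genes (± SE) and grey points for 33 other spindle genes. Both axes share the 4 siControl libraries. FAM83D and KNSTRN sit by the dotted line of equal change, and DEPDC1B at -1.51 and DEPDC1 at -1.01 on the siMYBL2 axis sit near 0 on the other.

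The median log2 fold change of the 10 members was -0.62 in siMYBL2, -0.27 in siFOXM1, -1.11 in siBoth and -0.05 in FDI6, beside medians of all genes between -0.01 and 0.02. All siBoth libraries were below all siControl_Both libraries for 10 of 10 members, where 18.8% of all genes were so placed. For siMYBL2 that held for 8 members against 12.3% of all genes, for siFOXM1 for 4 against 4.81%, and for FDI6 for 5 against 24.8%. Of all genes called in siBoth, 56.5% were lower with TMM and 40.6% with upper-quartile scaling, and the 9 members were called lower under both.

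How far the combined knockdown went beyond the single ones was read from 1 fit of all 18 siRNA libraries. The siBoth log2 fold change was near the sum of both single values for most members: in this fit the median was -1.12 for siBoth and -1.12 for the sum. DEPDC1B had -1.38 in siBoth against a sum of -1.51, and siMYBL2 alone made up nearly the whole of that sum. FAM83D had -1.12 against a sum of -1.34, to which siMYBL2 contributed 48.0%. For 9 of the 10 the difference from the sum was smaller than its standard error. That fit did not use the pairing of the replicates, and standard errors with the pairing are not given here. HMMR was the exception, at -0.57 against a sum of -0.31, a difference of -0.26 ± 0.18 (SE). The difference for ASPM was of the same size with a larger standard error, -0.26 ± 0.26, so HMMR is set apart by its smaller error. Differences over all members ran from -0.26 to 0.21. With standard errors of 0.18 to 0.31 in this unpaired fit, a modest departure from the sum in either direction was not detectable by it. The single and combined knockdowns were separate sets with their own controls.

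**Figure D5:**
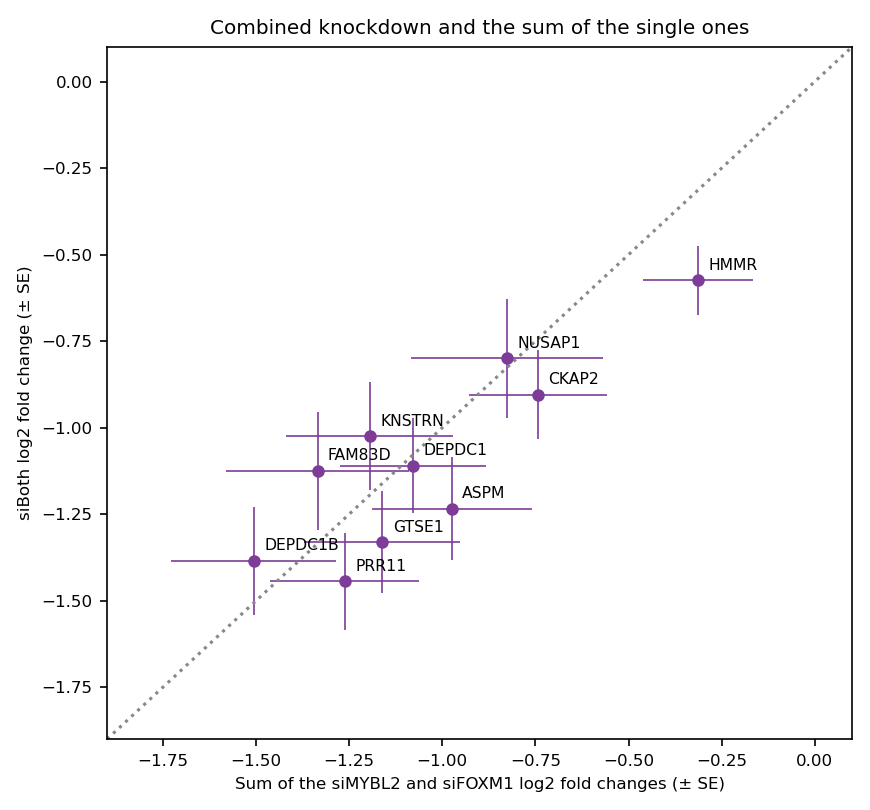
Log2 fold change in siBoth against the sum of the siMYBL2 and siFOXM1 values (± SE) for the 10 genes, with the dotted line where they are equal. Points lie around the line from HMMR, at -0.31 and -0.57, to DEPDC1B, at -1.51 and -1.38.

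With FDI-6 the members' changes were mostly small and of mixed sign. In FDI6 1 member was called lower, where 5.77% of 15240 genes were called lower and 8.0% higher. It was NUSAP1, at 1.46, 1.34 and 1.89 CPM against 2.77, 2.32 and 3.93 CPM in control_FDI6. That is a log2 fold change of -0.93 ± 0.27 on the partial counts described above, and with NUSAP1 set aside 0 members were called. NUSAP1 lost its call without FDI6 replicate 2 or control_FDI6 replicate 3 (log2 fold changes -0.84 and -0.70). GTSE1 was at 55.4, 63.0 and 55.3 CPM against 77.3, 79.5 and 69.9 CPM, with -0.39 ± 0.08, and FAM83D had -0.20 ± 0.07. ASPM was the member above its control in every library, at 208, 176 and 154 CPM against 135, 140 and 151 CPM, with a log2 fold change of 0.33 ± 0.10. HMMR at -0.01 ± 0.09, PRR11 at 0.07 ± 0.09, DEPDC1 at 0.13 ± 0.09 and CKAP2 at 0.19 ± 0.10 overlapped their controls. KNSTRN at -0.14 ± 0.08 and DEPDC1B at -0.10 ± 0.08 had separate but close ranges. FOXM1 itself had -0.37 ± 0.08 and MYBL2 -0.51 ± 0.09 in FDI6, so the knockdowns and the compound differ in target level and in kind of agent. The time between transfection and harvest is not given in the sources used here, and the values stand side by side only.

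The members' baseline also differed between the control groups. These groups were the denominators of the contrasts known when the members were picked, so their values too are given with no test. Between siControl_Both and siControl 0 of 10 members were called by edgeR and 0 by DESeq2, and 6 had an unadjusted p under 0.05, where 43.3% of all 15963 genes had one. Of all genes, 7.67% were called lower and 6.98% higher. The log2 difference, siControl_Both minus siControl, was -0.50 ± 0.10 (SE) for ASPM, -0.49 ± 0.08 for DEPDC1, -0.33 ± 0.09 for CKAP2 and -0.28 ± 0.08 for HMMR, and for these genes every siControl_Both library was below every siControl library. NUSAP1 lay the other way at 0.54 ± 0.14, with separate ranges. FAM83D at -0.31 ± 0.13, GTSE1 at -0.20 ± 0.09, DEPDC1B at -0.15 ± 0.09, PRR11 at -0.10 ± 0.08 and KNSTRN at 0.06 ± 0.11 had overlapping ranges. Without siControl replicate 2, 1 member, NUSAP1, was called.

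Between control_FDI6 and siControl 0 of 10 members were called by edgeR and 0 by DESeq2, and 8 had an unadjusted p under 0.05, where 58.0% of all 16125 genes had one. Over all genes 15.4% were called lower and 12.4% higher, and the lower share of the calls was 55.3% with TMM and 44.2% with upper-quartile scaling. The log2 difference, control_FDI6 minus siControl, was 0.51 ± 0.09 for KNSTRN, 0.44 ± 0.08 for GTSE1, 0.36 ± 0.08 for DEPDC1B, 0.34 ± 0.11 for FAM83D and 0.30 ± 0.06 for HMMR, and for these genes every control_FDI6 library was above every siControl library. ASPM was on the other side at -0.41 ± 0.10, with separate ranges. The ranges overlapped for NUSAP1 at -0.50 ± 0.21, DEPDC1 at -0.19 ± 0.08, PRR11 at 0.04 ± 0.07 and CKAP2 at 0.00 ± 0.08. Without control_FDI6 replicate 3, 1 member, NUSAP1, was called at -0.74, and with upper-quartile scaling KNSTRN was called. Scrambled siRNA, its transfection, any DMSO and the set of libraries cannot be told apart in these comparisons.

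Over replicates the members tended to move together. In siControl replicate 3 had the highest value for 9 of 10 members and replicate 4 the lowest for 6, in siFOXM1 replicate 3 was highest for 9, and in siMYBL2 replicate 3 was highest for 7 and replicate 4 lowest for 8. Over the 14 treated libraries, each taken as log2 CPM minus the mean of its controls, the Pearson correlation between members had a median of 0.773 over 45 pairs. The closest pair was FAM83D and KNSTRN at 0.975, and the least alike was NUSAP1 and CKAP2 at -0.131. These points share libraries, controls and the treatments themselves, so the values are a description only. Among 11360 other genes that averaged 100 or more counts, the profiles most like the members' mean were those of CDCA2 (r = 0.987), PRR11-AS1 (0.984), MKI67 (0.979), KIF23 (0.979) and CCNF (0.974). PRR11-AS1 shares exon bases with the member PRR11 on the opposite strand. With the strand setting not given, its profile cannot be taken as separate from that of PRR11. MKI67, which codes for the proliferation antigen Ki-67, had log2 fold changes of -0.91, -0.32, -1.504 and -0.03 in siMYBL2, siFOXM1, siBoth and FDI6. CCNF, cyclin F, had -1.26, -0.85, -1.99 and -0.46.

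Other non-motor spindle genes were taken as a list of 33 made by function, some of which also moved. The 33 were chosen with earlier results of these data known, and the members described above are not among them. The adjusted p-values given for them here and in the rest of these results are therefore a description and not independent tests. In siMYBL2 3 of 33 were called lower and 0 higher, with a median log2 fold change of -0.16, against 3.52% and 4.38% of all genes. Of the 33, 18 had an unadjusted p under 0.05, where 32.2% of all genes had one. DLGAP5 (HURP), which stabilises kinetochore fibres, fell by 1.07 on the log2 scale (SE 0.10, edgeR adjusted p = 0.000307). TROAP, the trophinin-associated protein, fell by 0.80 (SE 0.16, edgeR adjusted p = 0.00873), and HAUS1 of the augmin complex fell by 0.59 (SE 0.13, edgeR adjusted p = 0.0144).

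In siFOXM1 again 3 of 33 were called lower, against 0.591% of all genes, with a median of -0.05. TROAP fell by 1.33 (SE 0.13, edgeR adjusted p = 0.00154), and GPSM2 (LGN), which orients the spindle, fell by 1.08 (SE 0.09, edgeR adjusted p = 0.000572). CKAP2L, a paralogue of CKAP2, fell by 0.69 (SE 0.09, edgeR adjusted p = 0.00818). Set directly against each other, siMYBL2 and siFOXM1 differed at 4 of the 33, named after their values were seen, with 2 called higher and 2 called lower against 5.86% and 4.34% of all genes. GPSM2 and CKAP2L were higher in siMYBL2, by 0.59 (edgeR adjusted p = 0.00196) and 0.64 (edgeR adjusted p = 0.0134). DLGAP5 and PSRC1 were lower there, with log2 differences of -0.98 (edgeR adjusted p = 0.000258) and -0.71 (edgeR adjusted p = 0.0183).

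In siBoth 6 of 33 were called lower and 1 higher, against 3.64% and 2.8% of all genes, with a median of -0.22. TROAP fell by 1.69 (SE 0.09, edgeR adjusted p = 9.05e-05), DLGAP5 fell by 1.12 (SE 0.09, edgeR adjusted p = 0.000456) and GPSM2 fell by 1.08 (SE 0.12, edgeR adjusted p = 0.00192). MAPRE3 (EB3), which tracks growing microtubule ends, rose by 0.83 (SE 0.16, edgeR adjusted p = 0.0175). In FDI6 1 of the 32 tested was called lower and 2 higher, a share no larger than the 5.77% and 8.0% of all genes. TROAP fell by 0.63 (SE 0.09, edgeR adjusted p = 0.000219), MAP9 rose by 0.62 (SE 0.12, edgeR adjusted p = 0.00226) and HAUS6 rose by 0.59 (SE 0.11, edgeR adjusted p = 0.00113).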

How the data were processed

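RNA-seq of A549 cells was analysed in 24 libraries from 7 groups, as the labels give them. According to the study's methods, the authors trimmed reads with Trim Galore, aligned them to hg38 with STAR using GENCODE V29 and counted pairs per gene with HTSeq, whose versions and strand setting are not given in the sources used here. The values deposited by the authors are raw counts of read pairs per gene, not normalized. HTSeq drops pairs that fit more than 1 gene (7.88% to 11.2% per library). Rows that name no gene held 18.5% to 26.2% of all pairs and were left out. Identifiers were matched to GENCODE V44, on the same build, for 58207 of 58721. The 10 members, the 33 other spindle genes, the motifs and the marker lists were chosen with earlier results of these data known.

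edgeR 4.0.16 (R 4.3.3) fitted the counts of the groups compared and no others (TMM, filterByExpr, quasi-likelihood test, Benjamini-Hochberg adjustment over all genes tested). A gene was called when it changed by more than 1.5-fold with an adjusted p below 0.05. The standard error is the log2 fold change divided by the square root of F, and 95% intervals use the t quantile at the fit's degrees of freedom. CPM are scaled by TMM over all 24 libraries. The procedure was tested on simulated data. Replicate numbers in the labels were taken to pair samples where same-numbered libraries deviated together from their group means: the lowest correlation was 0.57 in siMYBL2, 0.54 in siFOXM1, 0.55 in siBoth and 0.52 between both knockdowns. In FDI6 it was -0.29 and in the control comparisons -0.01 and -0.05, so these were not taken as paired. Within groups no library was a second deposit of another (chi-square per gene 3.57 to 62.8 over 30 pairs), and pairs across groups were not compared. P-values measure the spread between these cultures only.

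Genes named were all members, both targets, the 3 called spindle genes outside the 10 that fell furthest and the 3 that rose furthest in each treatment, the 5 closest profiles, and genes overlapping a member. Promoter sequences came from RefSeq (GRCh38.p14). Alternatives were RLE and upper-quartile scaling, DESeq2 1.42.0, the replicate block, all genes with a count, only genes with 10 or more counts in each library, leaving out each library and a 150-base promoter window. Leaving out NUSAP1 was added after seeing the data.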

Additional observations from a re-analysis of the deposited data

Results flagged for a closer look

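In 2 of the 30 combinations of member and group of 4 libraries, 1 library stood apart from the other 3 by Dixon's criterion, a rule that chance alone meets in about 1 in 20 groups. ASPM in siMYBL2 replicate 3 was at 162 CPM, with the nearest library at 120 CPM and the lowest at 112 CPM. PRR11 in siControl replicate 3 was at 93.5 CPM, with the nearest at 86.9 CPM and the lowest at 85.5 CPM. Replicate 3 was also the highest library for most members in these groups.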

How the results depend on the processing

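No called member changed sign under any alternative run: of the members' log2 fold changes 916 stayed within the replicate spread and 4 moved further (CKAP2 in siBoth without siBoth replicate 3, and HMMR, DEPDC1B and PRR11 between control_FDI6 and siControl with upper-quartile scaling). The replicate block raised the genes called to 1991 in siMYBL2 (from 1269), 401 in siFOXM1 (from 106) and 1849 in siBoth (from 1019), and the members called in siFOXM1 to 2. It changed no other count of members called. In the control comparisons, where the numbers do not pair samples, the fit with the block also left out siControl replicate 4, which has no partner. DESeq2 called 163 genes and 2 members in siFOXM1, and without a filter on low counts there were 2 members there and 1545 genes in siBoth. With upper-quartile scaling 1 member was called between control_FDI6 and siControl, 5 in siMYBL2 and 3 between siMYBL2 and siFOXM1. Leaving out NUSAP1 took the members called in FDI6 to 0. Leaving out each library in turn gave 56 to 115 genes and 0 to 2 members in siFOXM1, 587 to 1097 genes in siBoth and 8 to 10 members, 4 to 7 members in siMYBL2, 0 to 1 in FDI6, 0 to 1 between siControl_Both and siControl and 0 to 1 between control_FDI6 and siControl. The lowest siFOXM1 count came without siFOXM1 replicate 1, and the lowest siBoth count without siBoth replicate 2. The causes were not tested. In the promoter window of 150 bases, 6 genes held the CHR letters (7.37% of all promoters), 7 the CCAAT box (21.3%), 1 the forkhead core (5.49%) and 6 the MYB core (53.4%). At 23 to 164 counts per library, NUSAP1 has the least precise values.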
